A study of Mus musculus with 8 samples.

Results

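SySy coding peaks in last exons are the methylated regions of nascent mRNA that lie in coding sequence of the final exon, clear of the stop codon. A peak was counted when it had been called with the Synaptic Systems (SySy) antibody, with Abcam support (confidence group 1, Cfg1) or with Abcam signal under the calling threshold (Cfg2), and when its midpoint lay in the last exon, in coding sequence, more than 200 nt upstream of the stop codon in the spliced transcript with the longest coding sequence. Single-exon transcripts were included. The rule took 1272 of the 17068 peaks in the 3 lists, 746 of the 5277 in Cfg1 and 526 of the 5472 in Cfg2, and they lay in 688 genes. Nearest the limit, peaks of Baz1b and Bicra lay 202 nt upstream of the stop codon and were counted, and peaks of Adamts15 and Hist1h4f lay at 200 nt and were not.

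The cells were E14 mouse embryonic stem cells, an untreated line grown with LIF and serum on gelatin without feeder cells. N6-methyladenosine (m6A) was immunoprecipitated from chromatin-associated RNA (ChrMeRIP), and the same kind of RNA without precipitation served as input. There were 8 libraries in 4 groups of 2, a ChrMeRIP and an input group for SySy and the same pair for Abcam, and no genotype, agent or time differed between them. By the methods the library kit differed between the antibodies, so antibody and kit cannot be told apart, whereas the labels name 1 kit for all libraries. The authors called peaks on the duplicates of each antibody, so the lists give no value per library, no peak height and no depth. Every interval and p-value below covers the counting of peaks, which are not replicates of a condition, and peaks of 1 gene share its RNA. Of 12 markers of pluripotent cells 10 had an exonic SySy peak, against 1 of 12 fibroblast markers (Fn1) and 2 of 14 markers of early lineages (Eomes and Sox1).

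m6A is written on nascent RNA by a complex of METTL3 and METTL14 with WTAP, VIRMA, ZC3H13, CBLL1 and RBM15 or RBM15B. The complex prefers DRACH, a pentamer in which D is A, G or T, R is A or G and H is A, C or T in DNA letters, and GGACT is its best known form. In mature mRNA the mark is common in long internal exons and around stop codons. The last exon differs from other exons in that it has a splice junction at its 5′ end alone, and its coding part is joined to the 3′ untranslated region (UTR).

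To show what these regions hold, 45-nt windows around the GGACT nearest the peak midpoint were read from assembly GRCm38.p6 (the mm10 coordinates of the lists), all of them coding, on the transcribed strand, with the pentamer in capitals. Ahnak encodes a giant scaffold protein built of repeats, and its windows at chr19:9005686-9005730 and chr19:9007027-9007071, in a Cfg1 and a Cfg2 peak, are copies of a similar unit. Plec encodes plectin, a linker of the cytoskeleton, and its window is at chr15:76175701-76175745. Ranbp6 is an intronless gene of the importin beta family (chr19:29811858-29811902), and Epm2aip1 is an intronless gene whose product binds laforin (chr9:111272670-111272714). Rbm15b encodes a subunit of the writer complex itself (chr9:106886044-106886088). Nanog encodes a pluripotency factor, and its window is at chr6:122713376-122713420. Zbtb18 encodes a zinc finger repressor, and its window, at chr1:177448039-177448083, is centred 2 nt from the peak midpoint.
Ahnak, Cfg1 peak: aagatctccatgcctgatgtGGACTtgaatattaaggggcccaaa
Ahnak, Cfg2 peak: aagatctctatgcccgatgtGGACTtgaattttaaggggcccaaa
Plec, Cfg2 peak: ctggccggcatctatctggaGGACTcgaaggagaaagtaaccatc
Ranbp6, Cfg1 peak: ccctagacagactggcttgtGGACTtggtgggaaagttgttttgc
Epm2aip1, Cfg1 peak: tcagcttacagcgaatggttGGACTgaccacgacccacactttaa
Rbm15b, Cfg2 peak: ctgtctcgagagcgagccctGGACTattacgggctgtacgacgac
Nanog, Cfg1 peak: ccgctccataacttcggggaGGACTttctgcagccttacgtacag
Zbtb18, Cfg1 peak: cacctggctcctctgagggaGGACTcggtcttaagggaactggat

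Motifs were searched on the transcribed strand, with overlapping matches counted. Most of the peaks held no GGACT, and a peak with several was rare. GGACT was present in 353 of 1272 peaks (27.8%, 95% Wilson interval 25.4 to 30.3), absent from 919, and present more than once in 60, with at most 3 in 1 peak. The Cfg1 peak of Spry2, a feedback inhibitor of receptor tyrosine kinase signalling, is 1 of 5 peaks with 3 copies and is shown whole (chr14:105893042-105893291, minus strand).
Spry2, Cfg1 peak: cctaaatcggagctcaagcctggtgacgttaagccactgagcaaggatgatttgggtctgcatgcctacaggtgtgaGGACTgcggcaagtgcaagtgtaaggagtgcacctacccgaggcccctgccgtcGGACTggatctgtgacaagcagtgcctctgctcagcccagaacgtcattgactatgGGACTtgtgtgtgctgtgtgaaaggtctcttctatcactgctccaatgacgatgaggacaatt

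The transcripts that carried the peaks fell into 3 kinds. In 492 genes with 858 peaks the coding sequence was split between the last exon and earlier ones, as in Plec, Ahnak and Asxl1, a cofactor of Polycomb-linked histone deubiquitination. In 121 genes with 267 peaks the transcript was spliced but the whole coding sequence lay in the last exon, as in Amer1, an APC-binding regulator of Wnt signalling, and Zbtb22. The remaining 75 genes with 147 peaks were intronless, among them Ranbp6, Epm2aip1 and Irf2bpl. Cfg1 peaks made up 64.0% of the peaks where the coding sequence was split, 51.3% where it lay whole in the last exon, and 40.8% in intronless transcripts. The share in intronless transcripts was 8.04% among Cfg1 peaks (60 of 746, interval 6.30 to 10.2) and 16.5% among Cfg2 peaks (87 of 526, 13.6 to 19.96), a difference of -8.50 percentage points (-12.3 to -4.85; two-sided exact test of Fisher, adjusted p = 2e-05). Ranbp6 alone gave 8 of those Cfg2 peaks and 1 of the Cfg1 peaks.

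Peaks were 56 to 250 nt wide, with a median of 188 nt. Their midpoints lay a median of 617 nt upstream of the stop codon (quartiles 358 and 1095), and the farthest, in Ahnak, lay 16416 nt upstream. In the 1125 peaks of spliced transcripts the midpoint lay a median of 592 nt downstream of the last exon junction (quartiles 338 and 1076). The last exons were long, with a median over peaks of 3276 nt, of which a median of 1210 nt was coding sequence more than 200 nt upstream of the stop codon. That coding sequence, where the midpoint of a counted peak could lie, is called the coding stretch below.

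Within the coding stretch the peaks were sparse near the last exon junction. Only 30 of 1125 midpoints (2.67%, interval 1.87 to 3.78) lay within 100 nt of it, where 10.5% of the positions open to a midpoint lay, and 106 (9.42%, 7.85 to 11.3) lay within 200 nt, where 20.9% of positions lay. In the first 50 nt there were 6 midpoints (0.533%), against 5.11% of positions. Peaks are genomic intervals, so a midpoint close to the junction needs a narrow interval or one that runs past the start of the exon. The open positions make no allowance for peak width, and how far this lowers the counts was not tested. From 201 to 400 nt the order turned, with 267 midpoints (23.7%) against 18.6% of positions. The share within 200 nt was 9.33% in Cfg1 (64 of 686) and 9.57% in Cfg2 (42 of 439), a difference of -0.24 points that did not pass the test (-3.91 to 3.17; exact test, adjusted p = 0.92). The intervals of the counted peaks were also laid over the exons. A peak that reaches into the exon with its midpoint before the junction is not counted, so coverage next to the junction is partly low by the rule. Any part of a peak covered 7.41% of the coding nucleotides 1 to 50 nt from the junction in the 613 spliced exons with a peak, 12.1% at 51 to 100 nt, 27.8% at 151 to 200 nt and 43.8% at 301 to 350 nt. Abcam-only peaks (Cfg3) at the same kind of place, which were narrower (median width 145 against 188 nt), lay within 200 nt more often. Of 365 in spliced transcripts 75 (20.5%, 16.7 to 24.99) had their midpoint within 200 nt, where 21.3% of positions lay. Nearer the junction they were sparse too, with 24 (6.58%, 4.46 to 9.60) within 100 nt against 11.2% of positions and 9 (2.47%, 1.30 to 4.62) in the first 50 nt against 5.68%. The difference of SySy from Abcam-only peaks was -11.1 points (-15.8 to -6.87; unadjusted exact p = 9.5e-08), in a comparison chosen after these values were seen. It was -11.7 points among peaks of at least 150 nt, -10.7 without zinc finger genes and -9.49 with the whole peak in the coding sequence of 1 exon. Within 400 nt it was -7.12 points and within 100 nt -3.91. With 1 peak per gene it was -12.6 points, but the peak kept was that nearest the 5′ end, a choice by the position compared. Coding peaks of SySy in long exons other than the last, measured from the junction at the 5′ end of their exon, showed 8.67% of 2412 midpoints within 200 nt against 18.9% of positions.

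**Figure D1:**
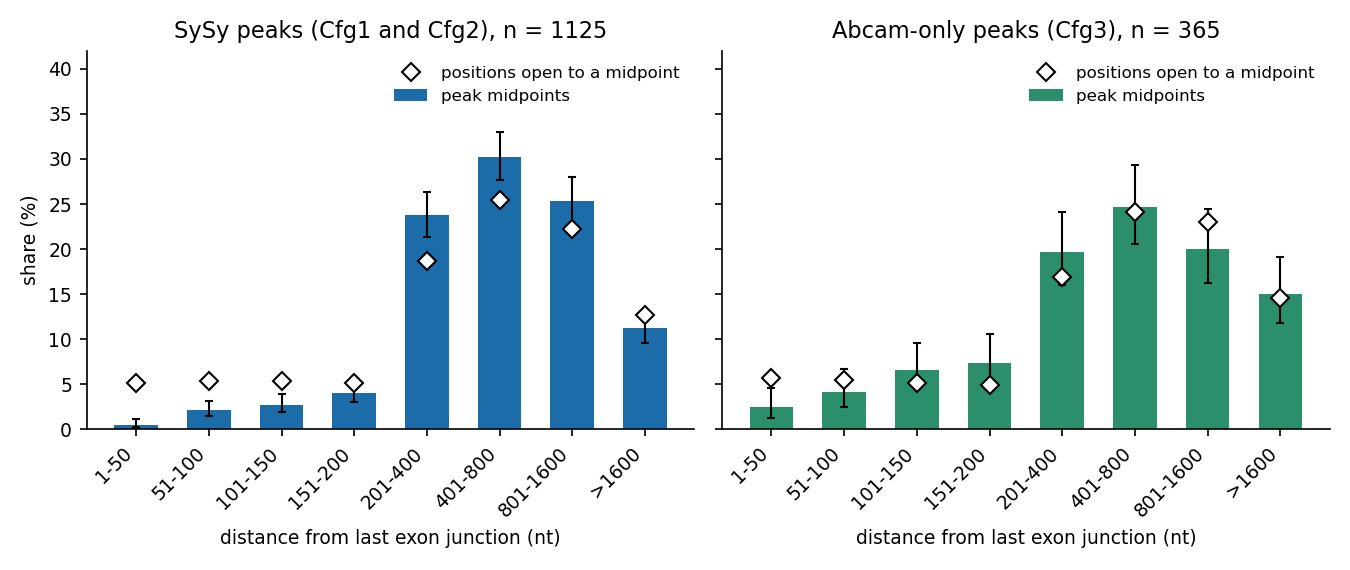
Share of peak midpoints (bars, in %, with 95% Wilson intervals) and of the positions open to a midpoint (diamonds) by distance from the last exon junction in nt, for SySy coding peaks in last exons of spliced transcripts (left) and Abcam-only peaks at the same kind of place (right). In the first 50 nt both fall below the diamonds (0.533% against 5.11% for SySy, 2.47% against 5.68% for Abcam-only). Between 150 and 200 nt SySy peaks stand at 4% against 5.16% and Abcam-only peaks at 7.40% against 4.93%.

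The peaks were densest near the stop codon. When each coding stretch was cut into 10 equal parts, 61 peaks (4.80%) lay in the part nearest the 5′ end and 170 (13.4%) in the part nearest the stop codon, and the 5 parts nearer the stop codon held 770 of 1272 (60.5%). From 201 to 300 nt upstream of the stop codon lay 210 midpoints (16.5%, 14.6 to 18.7), against 11.5% of positions. From 1201 to 1600 nt upstream lay 108 (8.49%, 7.08 to 10.2), against 10.6%, the lowest ratio of the 8 distance classes. Beyond 2400 nt the peaks of both lists together showed no deficit, so the density did not rise steadily. There lay 85 midpoints (6.68%, 5.44 to 8.19), against 6.76% of positions. The lists departed in opposite directions there, each with the share of positions inside its interval. Cfg1 had 5.36% (3.96 to 7.22) against 6.69% of positions, and Cfg2 8.56% (6.46 to 11.3) against 6.85%. In Abcam-only peaks the share at 201 to 300 nt was 11.6% (46 of 397, 8.80 to 15.1), against 11.5% of positions.

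Of the coding peaks more than 200 nt upstream of a stop codon, the last exon held 29.6% of the coding peaks in Cfg1 (746 of 2521), 28.9% in Cfg2 (526 of 1822) and 24.7% in Cfg3 (397 of 1605). Cfg1 was 4.86 points above Cfg3 (2.07 to 7.59; exact test, adjusted p = 0.0013) and Cfg2 was 4.13 points above it (1.16 to 7.08; adjusted p = 0.011), while the 0.72 points between Cfg1 and Cfg2 did not pass (-2.03 to 3.45; adjusted p = 0.71). When the whole peak had to lie in the coding sequence of 1 exon the differences from Cfg3 were 0.0170 and 1.49 points, and neither passed the threshold. Neither passed with a margin of 400 nt to the stop codon or with peaks of at least 150 nt. With 1 peak per gene and class Cfg1 stood 4.72 points above Cfg2 and passed (exact test, adjusted p = 0.034), while Cfg2 minus Cfg3 was 3.02 points and did not (adjusted p = 0.18), nor did it without single-exon transcripts (2.099 points, adjusted p = 0.22). The 1 peak kept was that nearest the 5′ end, which then set whether the gene counted as Cfg1 or Cfg2.

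Support by the Abcam antibody was more common for last-exon coding peaks than for coding peaks of short exons or for peaks at stop codons. Cfg1 peaks made up 58.6% of the 1272 peaks in last exons (55.9 to 61.3), 60.6% of 2796 coding peaks in other exons of at least 400 nt (58.8 to 62.4), 29.1% of 275 coding peaks in shorter exons other than the last (24.0 to 34.7) and 52.5% of 2086 peaks within 200 nt of a stop codon (50.4 to 54.7). The last exon was 29.6 points above shorter exons (23.3 to 35.3; exact test, adjusted p = 4.8e-18) and 6.11 points above stop codons (2.64 to 9.54; adjusted p = 0.0013). Its difference from other long exons, -1.97 points, did not pass (-5.24 to 1.26; exact test, adjusted p = 0.31). With exons under 1000 nt counted as short, the difference from them was 3.95 points (exact test, adjusted p = 0.056).

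GGACT was less common in last-exon coding peaks than in 2 of the other 3 classes. It was found in 34.4% of the coding peaks in other long exons (962 of 2796), in 32.7% of those in shorter exons (90 of 275) and in 38.7% of the peaks near stop codons (808 of 2086). The difference of the last exon from other long exons was -6.65 points (-9.64 to -3.59; exact test, adjusted p = 6.1e-05). From stop codons it was -11.0 points (-14.2 to -7.72; exact test, adjusted p = 4.6e-10), and from shorter exons -4.98 points (-11.2 to 0.87; exact test, adjusted p = 0.15). The last of these passed the threshold with whole peaks in 1 exon (-15.2 points) and with peaks of at least 150 nt (-12.3 points). The sequence at hand differed too. Of all windows of the same width with their midpoint in the same coding stretch, 18.7% on average held GGACT in last exons and 22.7% in other long exons, so that peaks exceeded windows 1.49 times in last exons and 1.51 times in other long exons. Any DRACH pentamer was found in 98.2% of last-exon peaks and in 96.2% of all such windows. With DRACH in place of GGACT the difference from other long exons was 0.0516 points (exact test, adjusted p = 1). From shorter exons it was 2.92 points (exact test, adjusted p = 0.015), with DRACH more common in last exons.

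**Figure D2:**
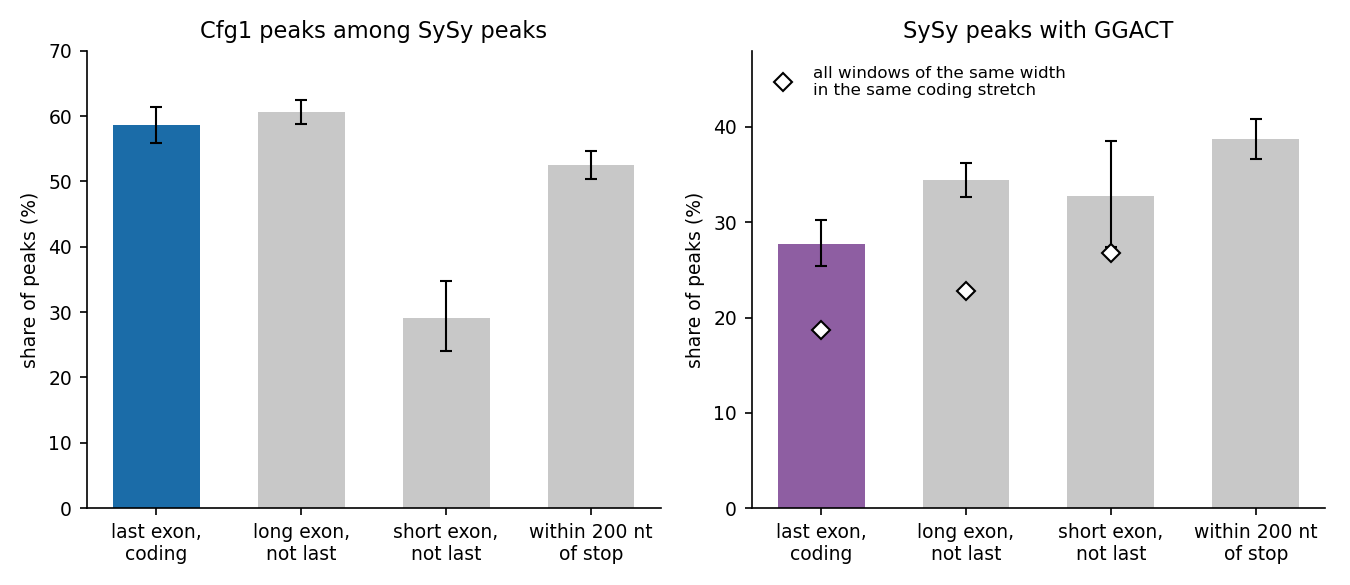
Left, share of Cfg1 among SySy peaks and, right, share of SySy peaks with GGACT, both in % of the peaks of a class, with 95% Wilson intervals. Coding peaks of the last exon (coloured) stand at 58.6% and 27.8%, and diamonds give the mean share of GGACT over all windows of the same width in the same coding stretch (18.7% for last exons).

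In last exons the Abcam-only list carried less GGACT than the SySy lists. The share was 28.3% in Cfg1 (211 of 746, 25.2 to 31.6) and 27.0% in Cfg2 (142 of 526, 23.4 to 30.9), a difference of 1.29 points that did not pass (-3.74 to 6.21; exact test, adjusted p = 0.71). It was 16.9% in Cfg3 (67 of 397, 13.5 to 20.9), 10.9 points below the SySy peaks (6.22 to 15.1; exact test, adjusted p = 2.8e-05). Abcam-only peaks were narrower, with a median of 145 nt, and all windows of their width in their stretches held GGACT in 12.4%. In intronless transcripts 38.1% of the 147 SySy peaks held GGACT (30.6 to 46.2), with 24.6% of windows, and in C2H2 zinc finger genes 21.2% of 193 did (16.1 to 27.5), with 12.9% of windows.

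Among the 18 DRACH pentamers 4 of the 6 that end in ACT had the highest ratios. AAACT (1.199 times) and TAACT (1.10 times) stood lower, below GGACA. For each of the 6 beginnings the form ending in T had the highest ratio, that ending in A the next and that ending in C the lowest. Per kb, GGACT was 1.62 times as frequent in the peaks as in the coding stretches of the same genes (1.78 against 1.10 per kb). AGACT followed at 1.51 times, TGACT at 1.44 times and GAACT at 1.38 times. GGACA stood at 1.33 times and GGACC at 1.27 times, while AAACC was the lowest at 0.746 times. These ratios are descriptions, since the peaks are part of the stretches they are compared with.

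GGACT was concentrated around the midpoint and on its 5′ side. The distances searched around neighbouring peaks overlap, so 1 GGACT can count for several peaks, and the Poisson intervals take no account of that. Per kb of last-exon coding sequence, Cfg1 had 1.99 GGACT within 50 nt of the midpoint (95% Poisson interval 1.69 to 2.34), 1.64 at 51 to 100 nt upstream (1.25 to 2.11) and 1.26 at 51 to 100 nt downstream (0.926 to 1.68). Cfg2 had 1.82 within 50 nt (1.47 to 2.22), 2.16 at 51 to 100 nt upstream (1.63 to 2.82) and 1.10 at 51 to 100 nt downstream (0.738 to 1.58). At 201 to 300 nt upstream the lists stood at 0.928 and 0.979. The Abcam-only peaks were lower at the centre, with 1.33 within 50 nt (0.997 to 1.74). They were also lower at 201 to 300 nt upstream, with 0.628 (0.372 to 0.992), so their GGACT rose towards the midpoint too.

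**Figure D3:**
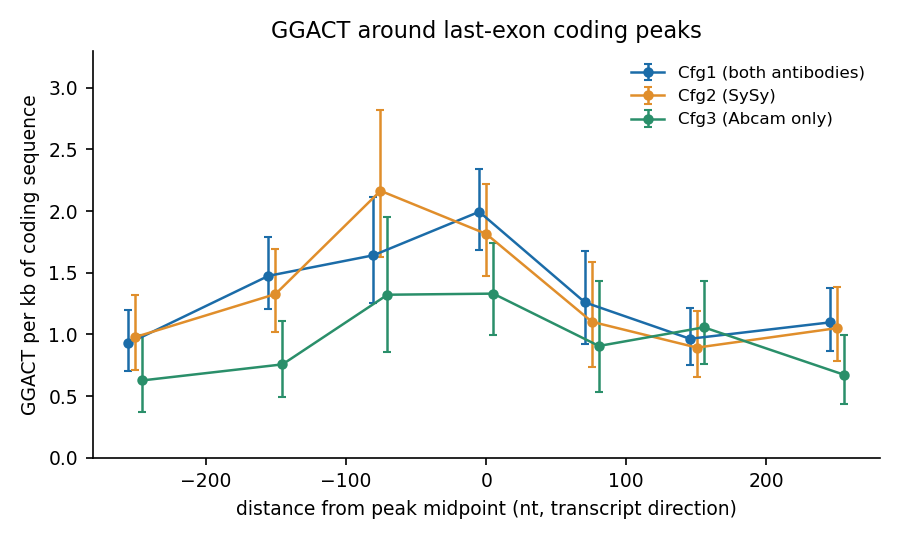
GGACT per kb of last-exon coding sequence (vertical axis) by distance from the peak midpoint in nt (negative is upstream), for Cfg1, Cfg2 and Abcam-only Cfg3 peaks, with 95% Poisson intervals and points shifted slightly sideways for legibility. Both SySy lists have their highest density at the midpoint or just upstream of it (1.99 in Cfg1 at the centre, 2.16 in Cfg2 at 51 to 100 nt upstream).

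Of 21938 coding genes, 9591 had a coding stretch, and 688 of them (7.17%) held at least 1 counted peak. Among the 2083 with a peak of any list in an exon the share was 33%. Since the lists give no input reads, a gene without a peak may be silent, so genes with a peak of any list are set beside them. A counted peak by itself admits its gene to that set, so all 688 are in it and the shares over it are raised by construction. The share rose with the length of the stretch. It was 0.817% of 3919 genes with 1 to 250 nt, 7.72% of 1477 with 251 to 500 nt, 7.80% of 2961 with 501 to 1000 nt, 23.8% of 963 with 1001 to 2000 nt, 28.0% of 239 with 2001 to 4000 nt and 46.9% of 32 with more than 4000 nt. Among genes with a peak of any list it rose from 3.67% of 871 to 93.8% of 16 over the same bins. Per kb of stretch the latter genes held 0.428 counted peaks in the shortest bin, 1.17 from 501 to 1000 nt and 0.768 in the longest, so the share of genes rose further than the density did. The 1128 olfactory receptor genes with a stretch, which are intronless in their coding part and not known for expression in stem cells, held none (0%, which allows up to 0.339% by the Wilson interval). Of these genes 1127 fall in the bin of 501 to 1000 nt and lower its 7.80%, as they lower the 7.17% over all genes with a stretch.

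**Figure D4:**
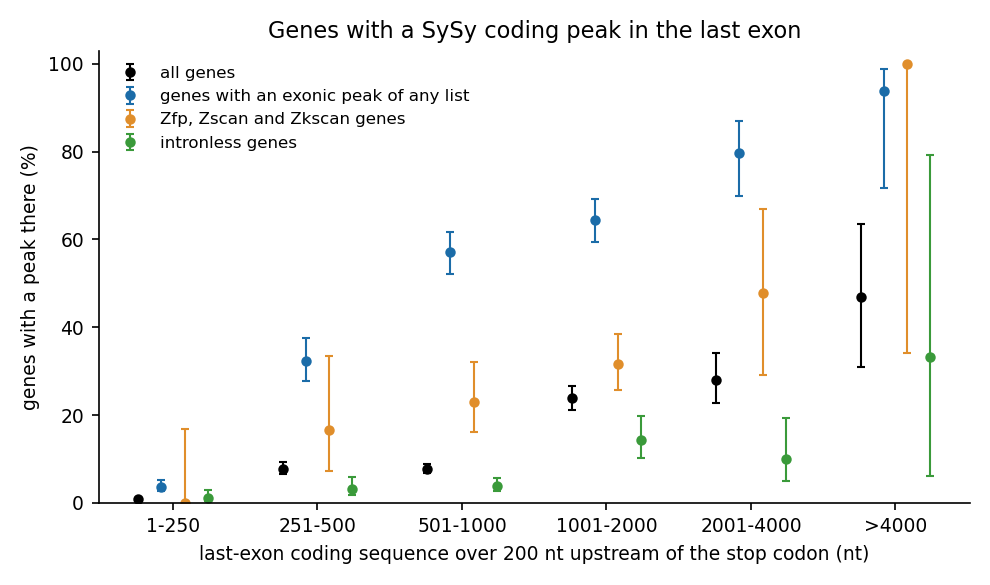
Share of genes (in %, with 95% Wilson intervals) with at least 1 SySy coding peak in the last exon, by the length in nt of the coding stretch, for all genes, genes with an exonic peak of any list, zinc finger genes named Zfp, Zscan or Zkscan, and intronless genes. In all genes the share goes from 0.817% in the shortest bin to 46.9% in the longest.

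The peaks were spread over many genes. Of the 688 genes, 393 had 1 peak, 295 had 2 or more and 74 had 4 or more, and the 10 genes with the most held 92 peaks (7.23%). Peaks of Cfg1 alone were found in 330 genes, peaks of Cfg2 alone in 227 and both in 131. Neighbouring peaks of 1 exon had their midpoints a median of 216 nt apart (584 pairs, quartiles 167 and 399), and 324 pairs (55.5%) lay within 5 nt of each other, as intervals that the authors split between summits do. Of the 688 genes 345 (50.1%) also had a SySy peak within 200 nt of the stop codon, 116 (16.9%) had one farther into the 3′ UTR, 116 had a SySy coding peak in another exon, and 133 (19.3%) had an Abcam-only peak in the same stretch.

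Ahnak and Plec led with 17 peaks each. In Ahnak 10 were Cfg1 and 7 Cfg2, from 1095 to 16416 nt upstream of the stop codon, and 6 held GGACT. In Plec 5 were Cfg1 and 12 Cfg2, from 567 to 5594 nt upstream, and 3 held GGACT. Peaks stood at 1.04 per kb of coding stretch in Ahnak and 2.83 per kb in Plec, where intervals from 3903 to 5594 nt upstream followed each other without a gap of more than 1 nt. Ranbp6 had 9, of which 8 were Cfg2, from 227 to 2784 nt upstream in a coding stretch of 3115 nt. Asxl1, Zfp292 and Amer1 had 7 each, with 6, 5 and 4 from Cfg1. BC067074, Epm2aip1 and Ddi2 were among 9 genes with 6. The 6 peaks of Ddi2 lay in the last exon of a transcript that overlaps the intronless gene Rsc1a1 on the same strand and were coding in both, so they cannot be given to either. Among the longest coding stretches with a peak were those of Ahnak (16423 nt), Eppk1 (10174 nt, 6 peaks), Zdbf2 (7103 nt, 4 peaks) and Zfp292 (6880 nt).

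**Figure D5:**
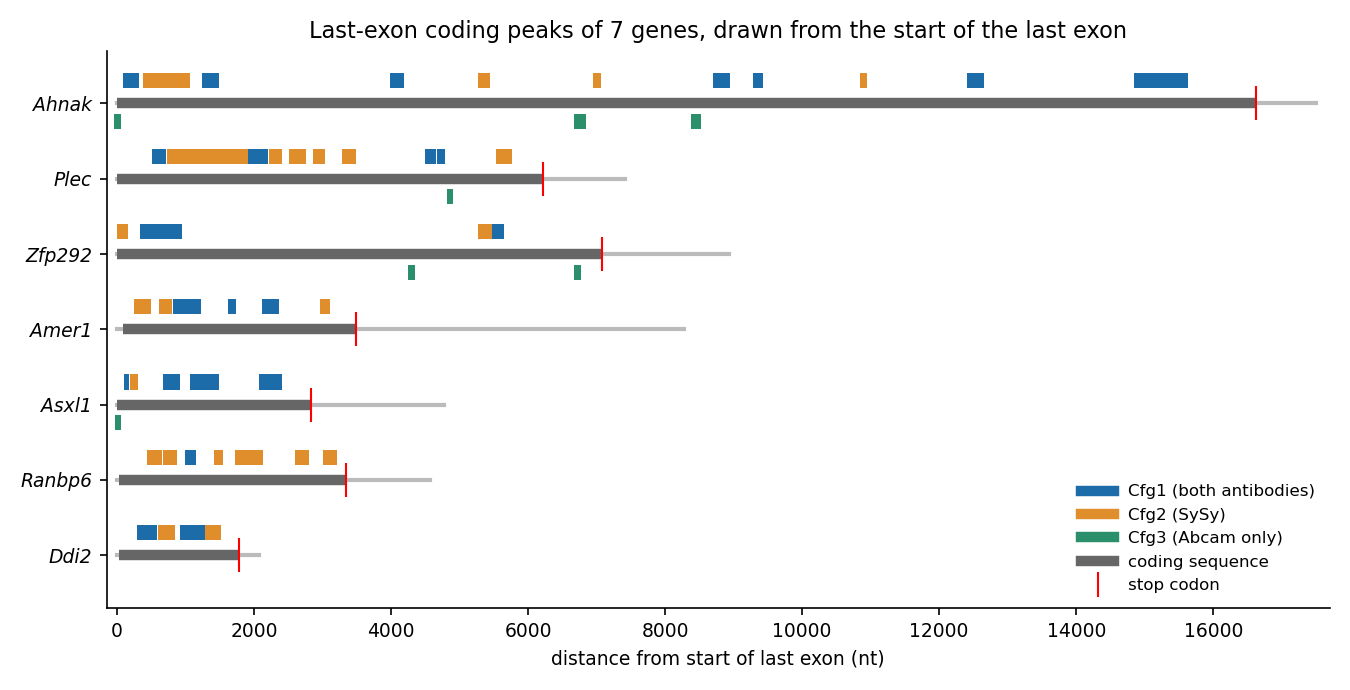
Last exons of 7 genes drawn to scale from their start (nt), with coding sequence as thick bars, the stop codon in red, SySy coding peaks above (Cfg1 blue, Cfg2 orange) and Abcam-only peaks below (green). The 17 peaks of Ahnak are spread over 16423 nt, the 17 of Plec lie mostly in its 5′ part, and Ranbp6 is 1 intronless exon with 9 peaks.

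The intronless genes with the most peaks were Ranbp6 (9), Epm2aip1 (6), Irf2bpl (5), Klhl9 (4) and Nap1l2 (4). Epm2aip1 had 5 Cfg1 peaks and 1 Cfg2 peak from 341 to 1275 nt upstream of the stop codon, with 5 GGACT in 4 of them. Nap1l2, a histone chaperone gene on the X chromosome, had 3 Cfg1 peaks and 1 Cfg2 peak, and all 4 held GGACT. Klhl9, an adaptor of a cullin ubiquitin ligase, had 4 Cfg1 peaks and none of the 4 held GGACT. Irf2bpl had 1 Cfg1 peak and 4 Cfg2 peaks. Since intronless genes are often retrocopies, each peak was compared with the assembled chromosomes. A second place with at least 95% identity over at least 80% of the peak was found for 87 of 1272 peaks (6.84%) in 58 genes, and for 10 of 147 in intronless transcripts (6.80%). All 4 peaks of Fem1a, Ints5 and Wdr20 were among them, with 1 of the 17 in Ahnak, 1 of the 5 in Irf2bpl and 1 of the 2 in Usp1. At those places the authors' reads could have come from the copy.

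In the lists of genes below, each share is set beside 7.17% where it is over genes with a coding stretch, and beside 33% where it is over those with a peak of any list, with no match for stretch length unless one is named. Both the 33% and the shares set beside it count genes that a counted peak alone may have admitted. Zinc finger factors, whose DNA-binding arrays are commonly coded in a single last exon, held many of the peaks. Of 383 genes named Zfp, Zscan or Zkscan with a coding stretch 107 had a peak (27.9%, 23.7 to 32.6, beside 7.17% of all such genes), with 193 peaks, 113 from Cfg1. Of their 197 genes with a peak of any list this was 54.3%, beside 33%. The list goes by name and so includes Zfp36, a CCCH protein that binds mRNA. Their stretches were long, with a median of 1161 nt against 378 nt over all such genes, and from 1001 to 2000 nt 65 of 205 (31.7%) had a peak, beside 23.8%. Among genes with a peak of any list their share was not the higher one at matched length. It was 52.2% of 46 zinc finger genes from 501 to 1000 nt (38.1 to 65.9), beside 57.0%, and 59.1% of 110 from 1001 to 2000 nt (49.7 to 67.8), beside 64.5%, and both shares of all such genes lie inside these intervals. Zfp292 had 7 peaks, Zfp518a 6 and Zfp518b 5. Of 38 Zbtb genes, which join zinc fingers to a BTB domain, 15 had a peak (39.5%, 25.6 to 55.3, beside 7.17%), which was 50% of their 30 genes with a peak of any list. They were led by Zbtb22 (6), Zbtb18 and Zbtb21 (4 each). Of 18 Klf, Sp and Egr genes none had one (0%, which allows up to 17.6% and so does not separate them from 7.17%).

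Among signalling genes, 10 of 21 receptor signalling adaptors with a coding stretch had a peak (47.6%, 28.3 to 67.6, beside 7.17%), and this was 58.8% of the 17 with a peak of any list, beside 33%. Socs4, of the suppressors of cytokine signalling, had 4, Spry2 had 3 and Spred1, an inhibitor of Ras and Raf signalling, had 2. Of 66 genes of the Wnt, Notch, Hedgehog and TGF-beta pathways 14 had a peak (21.2%, 13.1 to 32.5, beside 7.17%), or 53.8% of the 26 with a peak of any list, beside 33%. The Wnt receptor gene Fzd7 had 4, all Cfg2, and its paralogue Fzd5 had 3, all Cfg1. Apc, the scaffold of beta-catenin destruction, had 2 Cfg1 peaks within 434 nt of the stop codon and 5 Abcam-only peaks farther upstream. Of 97 adhesion genes of the protocadherin, Fat, Celsr, teneurin and Flrt kinds 92 had a stretch and 2 had a peak (2.17%, 0.598 to 7.58, beside 7.17%), Fat1 and Tenm4, with 1 each, or 12.5% of the 16 with a peak of any list.

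Of 8 m6A machinery genes with a coding stretch 3 had a peak (37.5%, 13.7 to 69.4, beside 7.17%), or 60% of the 5 with a peak of any list, and all 3 encode parts of the writer complex. Rbm15b, which is intronless, had 3 Cfg1 peaks and 1 Cfg2 peak from 419 to 1754 nt upstream of the stop codon. Wtap had 1 Cfg1 peak 297 nt upstream, and Cbll1 had 1 Cfg1 peak 219 nt upstream. Of 16 pluripotency genes 3 had a peak (18.8%, 6.59 to 43.0, with 7.17% inside the interval), and among the 11 with a peak of any list this was 27.3%, below the 33% of all such genes. Nanog had 1 Cfg1 peak 227 nt upstream of the stop codon and 185 nt from the last junction, the intronless Sox2 had 1 Cfg2 peak 458 nt upstream, and Zfp42 (Rex1) had 2 Cfg2 peaks 343 and 598 nt upstream. The 6 genes with a peak among 134 of the Sox, Fox, Pou and homeobox kinds (4.48%, 2.07 to 9.42) included Six4 with 2 peaks and Foxd3 and Foxm1 with 1 each. That share is near 7.17%, and among the 19 with a peak of any list it was 31.6%, beside 33%.

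Of 124 ubiquitin ligase genes of the Rnf, Trim, Fbxo and Klhl kinds 24 had a peak (19.4%, 13.4 to 27.2, beside 7.17%), or 47.1% of the 51 with a peak of any list, with 4 each in Klhl9, Rnf139 and Trim56. Of 12 Usp deubiquitinase genes 4 had one (33.3%, 13.8 to 60.9; 66.7% of the 6 with any peak), with 3 peaks in Usp53 and 2 each in Usp1 and Usp31. Of 16 Polycomb genes 2 had one (12.5%, 3.50 to 36.0; 25% of the 8 with any peak), Mga with 4 and Suz12, a core subunit of the complex that methylates H3K27, with 1. Of 27 histone lysine methyltransferase and demethylase genes 4 had one (14.8%, 5.92 to 32.5; 23.5% of the 17 with any peak), led by Kmt5b with 3 Cfg1 peaks, followed by Nsd1 and Prdm15 with 1 each. Of 22 retrotransposon-derived genes 4 had one (18.2%, 7.31 to 38.5; 57.1% of the 7 with any peak), with 4 Cfg1 peaks in Nynrin, 3 in Peg10 and 2 in Moap1. Of 31 immediate early genes 5 had one (16.1%, 7.09 to 32.6; 33.3% of the 15 with any peak), among them Junb and Zfp36 with 2 each and Ier5l with 1. The Polycomb, histone lysine and immediate early gene lists thus stood at or below the 33% of all genes with any peak. Of 71 histone genes 6 had one (8.45%, 3.93 to 17.2, near 7.17%; 60% of the 10 with any peak), all Cfg2, among them Hist1h1b with 2 and H1fx and Hist1h1d with 1 each. Histone genes are near-identical copies, and the only peaks of Hist1h1d, Hist1h2ae, Hist1h2ak and Hist1h4d had a second place at the 95% limit above, so 4 of the 6 genes are uncertain. None of 12 ribosomal protein genes (0%, which allows up to 24.2%) and none of 6 oxidative phosphorylation genes (0%, up to 39.0%) had one, and the median stretch there was 88.5 and 62.5 nt.

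The placement rests on 1 transcript per gene. Of the 1272 peaks 923 lay in genes with a further coding transcript. For 155 the midpoint was in the 3′ UTR of such a transcript, for 71 in coding sequence of an exon that was not its last, and for 594 in no exon of such a transcript. For 649 it was in coding sequence of the last exon of such a transcript, and 1 peak can fall in several of these groups. For 705 every further transcript that held the midpoint also had it in coding sequence of the last exon or none held it, so not all of the 705 are cases of agreement. The midpoint was coding in more than 1 gene for 18 peaks, and 2 peaks lay in transcripts without an annotated stop codon.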

How the data were processed

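The 8 libraries, in 4 groups of 2, were taken from the labels. The deposited files were 3 lists of strand-specific intervals with a name and a score, called by the authors with MACS2 2.1.1 (q under 0.05) on the duplicates of each antibody, trimmed to 125 nt on either side of a summit and split midway between summits. HOMER is also named in the submitters' notes. In the deposited lists every score of the 17068 intervals was 0. The strand of 1 entry carried an extra character and was taken as plus. The aligner for these libraries is not given in the sources used here.

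Midpoints were placed on GENCODE vM21, an earlier release than the study's, with 1 transcript per coding gene, that with the longest coding sequence. The reference was checked by splicing 549 transcripts, of which 549 equalled the transcript sequences. Shares were compared by the two-sided exact test of Fisher, with 13 tests adjusted together (Benjamini-Hochberg, threshold 0.05) and 1 added later left unadjusted, with Wilson intervals for shares and Newcombe intervals for differences, at 95%. Positions open to a midpoint were averaged over peaks, each within its own stretch. Copies were sought with BLAST 2.17.0 (megablast). The placement and the test were tested on simulated peaks and shares. The members, the gene lists and the naming rule were chosen with earlier results of these data known. The genes named are the 10 with the most peaks (ties broken by more Cfg1 peaks, then by symbol), the 5 intronless with the most, the 5 with the longest stretch, up to 3 per gene list, all of the m6A machinery and pluripotency lists, and those nearest the 200 nt limit, with Fem1a, Ints5, Wdr20 and Rsc1a1 added after their values were seen. One gene that this rule names is not reported here. Alternatives covered the transcript, the margin, the placement of a peak, peak width, genes left out, exon length, motif and window, and junction distance. Software was Python 3.11.15 with scipy 1.17.1, pysam 0.24.0 and matplotlib 3.10.9.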

Additional observations from a re-analysis of the deposited data

How the results depend on the processing

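The 16 alternatives, and 1 added later that left out the entry with the extra strand character, gave 168 values of the 13 comparisons. Of these 140 kept their direction and their side of the threshold. The 140 include values that a setting could not change, such as the share in intronless transcripts under another junction distance. No value past the threshold turned into one past it the other way. No paired analysis was possible because no list gives values for single libraries, and for the same reason no replicate was left out. The number of peaks ran from 688, with 1 peak per gene, to 1578. The cause of the changes below was not tested. With the whole peak inside the coding sequence of 1 exon, the differences in last-exon share were -1.48 points for Cfg1 minus Cfg2, 0.0170 for Cfg1 minus Cfg3 and 1.49 for Cfg2 minus Cfg3, the GGACT difference from shorter exons was -15.2 points (past the threshold), and the junction difference (Cfg1 minus Cfg2) was 0.66 points. With a margin of 400 nt the same 3 last-exon differences were -1.02, 1.92 and 2.94 points and the junction difference 1.00. With peaks of at least 150 nt they were -0.84, 3.88 and 4.72 points, the GGACT difference from shorter exons was -12.3 points (past the threshold) and the junction difference 1.13. With 1 peak per gene and class Cfg1 stood 4.72 points above Cfg2 in last-exon share (past the threshold) and Cfg2 3.02 above Cfg3, and the Abcam support differed by 0.99 points from other long exons. Without single-exon transcripts Cfg2 stood 2.099 points above Cfg3, and the Abcam support differed by 0.36 points from other long exons. Against shorter exons, the GGACT difference was 4.56 points when they ended at 200 nt, -7.63 when they ended at 1000 nt and -9.49 in windows reaching 50 nt to either side of the midpoint (the last 2 past the threshold), and the Abcam difference was 3.95 when they ended at 1000 nt. With any DRACH pentamer the differences were 0.0516 points from other long exons, -0.56 from stop codons and 0.71 from Cfg3. From shorter exons the DRACH difference was 2.92 points (past the threshold), in the direction opposite to that of GGACT. With a junction distance of 400 nt Cfg1 stood 5.06 points above Cfg2. The missing depth limits all of these: a peak not called is not a region without m6A.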

Other observations

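GGACT in the peaks tended to lie in 1 reading frame. Of 416 GGACT of the peaks that lay whole in coding sequence, the first G was the third base of a codon in 236 (56.7%, 95% Wilson interval 51.9 to 61.4), so that the pentamer spanned a whole GAC codon, which encodes aspartate. It was the first base of a codon in 93 (22.4%) and the second base in 87 (20.9%). In the same coding stretches outside the peaks the first G was the third base in 235 of 500 (47.0%, 42.7 to 51.4), the first in 128 (25.6%) and the second in 137 (27.4%). The Nanog window, shown in the report is of the commonest frame, and the Ranbp6 window is not. These values were not tested.

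TTTT, 4 successive T, was as frequent in the peaks of both SySy lists together as in all windows of their coding stretches. It was found in 448 of 1272 peaks (35.2%, 32.6 to 37.9) and in 35.3% of all windows of the same width with their midpoint in the same coding stretch. By list it was 35.1% (31.8 to 38.6) against 37.1% of windows in Cfg1 and 35.4% (31.4 to 39.5) against 32.6% in Cfg2. In the Abcam-only peaks of last exons the values were 22.4% of 397 (18.6 to 26.8) and 27.1% of windows.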
